A study of Mus musculus with 12 samples.

Results

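The comparison described here sets the brains of mice given conduritol B epoxide (CBE) together with GZ-667161 against the brains of mice given CBE without it. It holds 8 of the 12 whole-brain samples that were sequenced, 4 in each group, chosen by the treatment in their labels, and it covers all 12623 genes that passed the filter on low counts. All mice were C57BL/6. The 4 CBE+GZ-667161 samples (replicates 2, 3, 4 and 5) were taken at postnatal day 40. The CBE group mixes ages: replicates 2 and 3 were taken at day 34 and replicates 4 and 6 at day 40. The 4 PBS samples of day 40, which received neither agent, give the untreated level. Each library was made from the homogenate of a whole brain, the mice were injected, and the labels used here do not state doses or the day on which either agent was started. The labels do not name the animals. Samples of a group that differ in age or sex pattern come from different animals, and for the others the spread behind the p-values may be technical.

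CBE blocks the breakdown of glucosylceramide in lysosomes, and mice given it serve as a model of the neuronopathic forms of Gaucher disease. Glucosylceramide is made by glucosylceramide synthase, the product of Ugcg, and GZ-667161 is an inhibitor of that synthase that reaches the brain. Giving it beside CBE is an attempt at substrate reduction, in which less of the lipid is made while its breakdown is blocked. In brains in which this breakdown is blocked, neurons are lost and microglia and astrocytes become activated. The comparison asks which transcripts differ when the synthase inhibitor is added.

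Of the 12623 genes, 1.28% passed the test at an adjusted p under 0.05 (edgeR's quasi-likelihood test in 1 fit of all 12 samples, with Benjamini-Hochberg adjustment). Among them 56 were higher with GZ-667161 (0.444% of the genes tested) and 105 were lower (0.832%). At an unadjusted p under 0.05 edgeR gave 16.5% of all genes, and at an adjusted p under 0.05 DESeq2 called 3.87% and limma-voom 1.66%. Counts of list members are read against these shares. Changes of more than 2-fold were found in 12 of the higher and 48 of the lower genes. In 148 of these genes the 4 samples of one group did not overlap the 4 of the other, against 1021 of all 12623 genes (8.09%). The median log2 fold change over all genes was 0.01. The lower genes with the smallest p-values included an apolipoprotein, metallothioneins, markers of reactive astrocytes and a lysosomal hydrolase. The higher genes included the vascular peptide Apln and the myelin lipid enzyme Ugt8a. In the authors' deposited table, 375 genes passed for the same pair of groups. Its column names give no direction, and a positive value was read as higher in CBE. Read so, 226 were lower and 149 higher with GZ-667161. The table shares 159 calls with the test above, and every gene called above then has the same direction there. Both rest on the same samples, so shared calls and directions are no independent support.

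**Figure D1:**
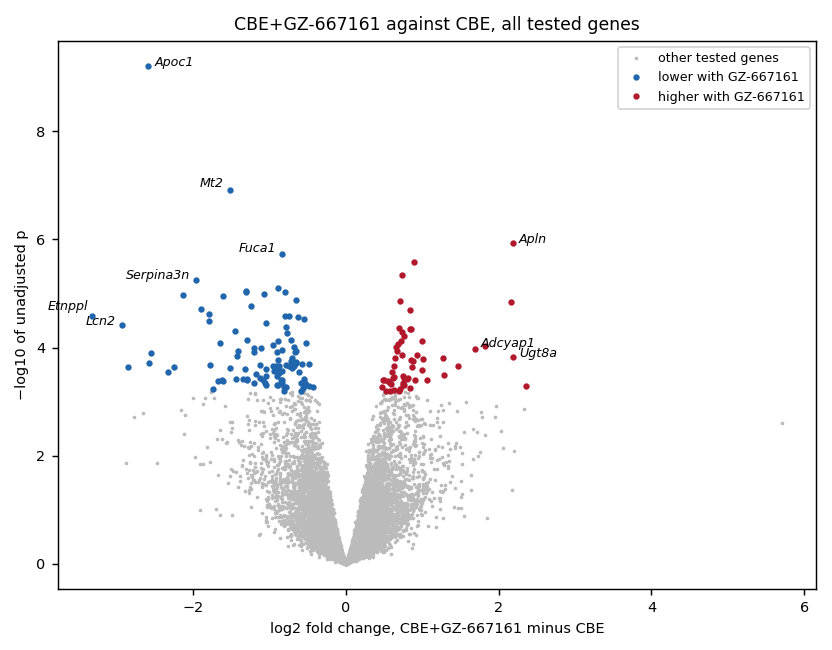
Log2 fold change of CBE+GZ-667161 minus CBE (horizontal axis) and −log10 of the unadjusted p (vertical axis) for the 12623 genes tested, with the 105 lower and 56 higher genes coloured. Apoc1 stands highest at a log2 fold change of -2.58, and the isolated grey point at 5.71 is Xist, which did not pass the test.

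Age, sex and depth were not balanced between the groups. Total counts ran from 1758446 to 3051435 in CBE, from 2217976 to 4917330 in CBE+GZ-667161 and from 2423380 to 6521257 in PBS, and the samples of day 34 had the lowest totals. Xist, the RNA of the inactive X chromosome, was at most 0.555 CPM (counts scaled to a common library total) in the 4 CBE samples, each of which had 24 to 27 counts of 4 Y-linked genes. It reached 25.7, 13.9 and 11.1 CPM in CBE+GZ-667161 replicates 2, 3 and 5, which had at most 1 Y-linked count, and was 0.419 CPM in replicate 4, which had 84. The CBE+GZ-667161 group therefore held 3 samples with the female pattern and 1 with the male pattern, and the CBE group held none with the female pattern. The PBS group held both patterns. Xist was at 7.96 and 18.3 CPM in PBS replicates 4 and 5, which had at most 1 Y-linked count. It was at most 0.265 CPM in PBS replicates 2 and 3, which had 34 and 38. On principal component 1 of the 8 samples (26.6% of the variance), the CBE samples of day 40 lay at 46.8 and 32.2, and the other 6 samples lay between -18.2 and -2.12.

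The count of changed genes moved with these samples. Against the CBE samples of day 40 alone, 777 genes passed (6.16%), of which 373 were higher (2.95%) and 404 lower (3.2%) with GZ-667161. Against the CBE samples of day 34 alone, 2 genes passed (0.0158%), Apoc1 and Mt2. Both comparisons use the same CBE+GZ-667161 samples. Of the genes called against all 4 CBE samples, 134 also passed against day 40, and 107 had a smaller change against day 34 than against day 40. With the Xist level as a covariate in the fit of all 12 samples, PBS included, 67 genes passed (0.531%). Of these, 37 were among the genes called without it, and all of those kept their direction. Of the 47 genes that passed and are named by the rule, 10 passed with that covariate, namely Apoc1, Mt2, Mt1, Apln, Fuca1, Serpina3n, Krt1, Adcyap1, Stac2 and Sgpl1. With CBE+GZ-667161 replicate 4 alone, the sample with the male pattern, against the 4 CBE samples, 10 genes passed, in a fit that takes the spread of a single sample from the other groups.

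Leaving out 1 library at a time also changed the count. It was 5 without CBE+GZ-667161 replicate 4, 18 without CBE replicate 4, 28 without CBE+GZ-667161 replicate 3, 31 without CBE replicate 6 and 76 without CBE+GZ-667161 replicate 2. It rose to 255 without CBE replicate 3 and to 269 without CBE+GZ-667161 replicate 5. Of all called genes, Apoc1, Mt2, Apln, Fuca1 and Ndufaf2 passed with every library left out in turn. The first 4 are among the 47 named genes, and the other 43 did not pass without CBE+GZ-667161 replicate 4. Over all called genes and all 12 left-out libraries, edgeR's adjusted p did not exceed 0.168.

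Reactive astrocytes, which thicken their intermediate filaments and secrete acute-phase and protease-inhibiting proteins, gave the longest set of falls. Of 27 tested genes on the reactive astrocyte list, 12 fell and none rose, and all 27 had a fitted change below 0, with a median log2 fold change of -1.11. Over all genes tested, 105 fell, 56 rose and the median was 0.01. The summed level of the list was 3147 to 3649 CPM in CBE, 1101 to 2101 CPM in CBE+GZ-667161 and 433 to 523 CPM in PBS, so that the groups did not overlap and the samples given GZ-667161 lay between the others. Against the CBE samples of day 40, 12 members fell, and the medians against day 40 and day 34 were -0.95 and -1.05. In bulk tissue, fewer cells of a type and less RNA per cell cannot be told apart.

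Serpina3n encodes a secreted serine protease inhibitor made by reactive astrocytes. It was at 667, 543, 962 and 980.1 CPM in CBE replicates 2, 3, 4 and 6, at 147, 134, 200.5 and 335 CPM in CBE+GZ-667161 replicates 2 to 5, and at 14.6 to 43.7 CPM in PBS. The groups did not overlap, and the sample nearest to CBE was CBE+GZ-667161 replicate 5. The fall was 3.89-fold, a log2 fold change of -1.96 ± 0.30 (SE; adjusted p = 0.010, edgeR). Lcn2, the acute-phase protein lipocalin 2, was at 116, 87.2, 366 and 326 CPM in CBE and at 18.9, 13, 15.5 and 81.1 CPM with GZ-667161, against 2.92 to 4.47 CPM in PBS. The log2 fold change was -2.92 ± 0.53 (adjusted p = 0.017, edgeR). The CBE samples of day 40 were the highest, and replicate 5 again stood above the other samples given GZ-667161.

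The intermediate filament genes behaved alike in replicate 5. Vim, the vimentin gene, was at 491, 478, 629.6 and 562 CPM in CBE, at 172, 175, 180.4 and 352 CPM with GZ-667161 and at 66.6 to 97.1 CPM in PBS, with a log2 fold change of -1.31 ± 0.21 (adjusted p = 0.010, edgeR). Gfap, which encodes the astrocyte filament protein GFAP, was at 911, 1024, 605 and 625 CPM in CBE and at 281, 289, 288 and 600.5 CPM with GZ-667161, against 59.1 to 110.3 CPM in PBS. On the log2 scale the change was -1.12 ± 0.25 (adjusted p = 0.040, edgeR), and replicate 5 lay just below the lower CBE samples. Unlike Lcn2, Gfap was higher in the CBE samples of day 34 than in those of day 40, a difference that did not pass (adjusted p = 0.35, edgeR). The change in Gfap was -0.76 ± 0.27 against day 40 and -1.41 ± 0.27 against day 34. Neither of these passed (adjusted p = 0.11 and 0.083, edgeR). Timp1, an inhibitor of metalloproteases, was at 38.8, 37.2, 36.8 and 85.8 CPM in CBE and at 11.1, 12.1, 14.9 and 21.4 CPM with GZ-667161, a log2 fold change of -1.79 ± 0.31 (adjusted p = 0.014, edgeR). The metalloreductase gene Steap4 fell by 2.57 ± 0.54 (adjusted p = 0.032, edgeR), from 14.1 ± 6.04 to 2.66 ± 2.33 CPM (SD, n = 4 each). Its values with GZ-667161 rest on few reads. Without CBE+GZ-667161 replicate 4 none of the 6 genes described passed (adjusted p = 0.055 to 0.13, edgeR). Lcn2, Gfap and Steap4 also did not pass without CBE replicate 4 or 6 or replicate 3 of CBE+GZ-667161 (0.056 to 0.12), nor did Timp1 without CBE replicate 6 or replicate 3 of CBE+GZ-667161 (0.053 and 0.056). Gfap and Steap4 did not pass without CBE+GZ-667161 replicate 2 (0.098 and 0.062), nor Gfap without CBE replicate 2 or 3 or PBS replicate 2 or 4 (0.054 to 0.072). The other members that fell were Cp, Aspg, Hspb1, S100a6, Fkbp5 and Serping1, with log2 fold changes of -1.78 to -0.74, and none of these passed without CBE+GZ-667161 replicate 4.

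Genes that mark astrocytes in the healthy brain changed less. Of 16 tested members of the astrocyte list, 3 fell and none rose, with a median of -0.16, and the summed level was 5561 to 6024 CPM in CBE, 5146 to 5495 CPM with GZ-667161 and 5082 to 5807 CPM in PBS. Slc1a3, a glutamate transporter, was at 451, 456, 476 and 523 CPM in CBE and at 293, 326, 328 and 383 CPM with GZ-667161, which was close to its 296 to 306 CPM in PBS, with a log2 fold change of -0.52 ± 0.10 (adjusted p = 0.024, edgeR). The connexin gene Gjb6 fell by 0.91 ± 0.19 (adjusted p = 0.032, edgeR) and Aldoc, an aldolase of glycolysis, by 0.42 ± 0.10 (adjusted p = 0.046, edgeR). Etnppl, an astrocyte enzyme that degrades phosphoethanolamine, had the lowest log2 fold change of all called genes, -3.32 ± 0.58 (adjusted p = 0.014, edgeR). It was at 11.9, 3.33, 24.9 and 32.1 CPM in CBE and at 0.909, 2.38, 1.67 and 2.67 CPM with GZ-667161, against 1.85 to 6.35 CPM in PBS, so the groups were separated mainly by the CBE samples of day 40. The values of Etnppl with GZ-667161 rest on few reads. None of the 4 genes passed without CBE replicate 4, CBE replicate 6 or replicate 4 of CBE+GZ-667161 (0.057 to 0.13), and of the 4 only Etnppl passed without CBE+GZ-667161 replicate 2 or 3. Aldoc did not pass without CBE replicate 2 or any 1 PBS sample (0.052 to 0.072).

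**Figure D2:**
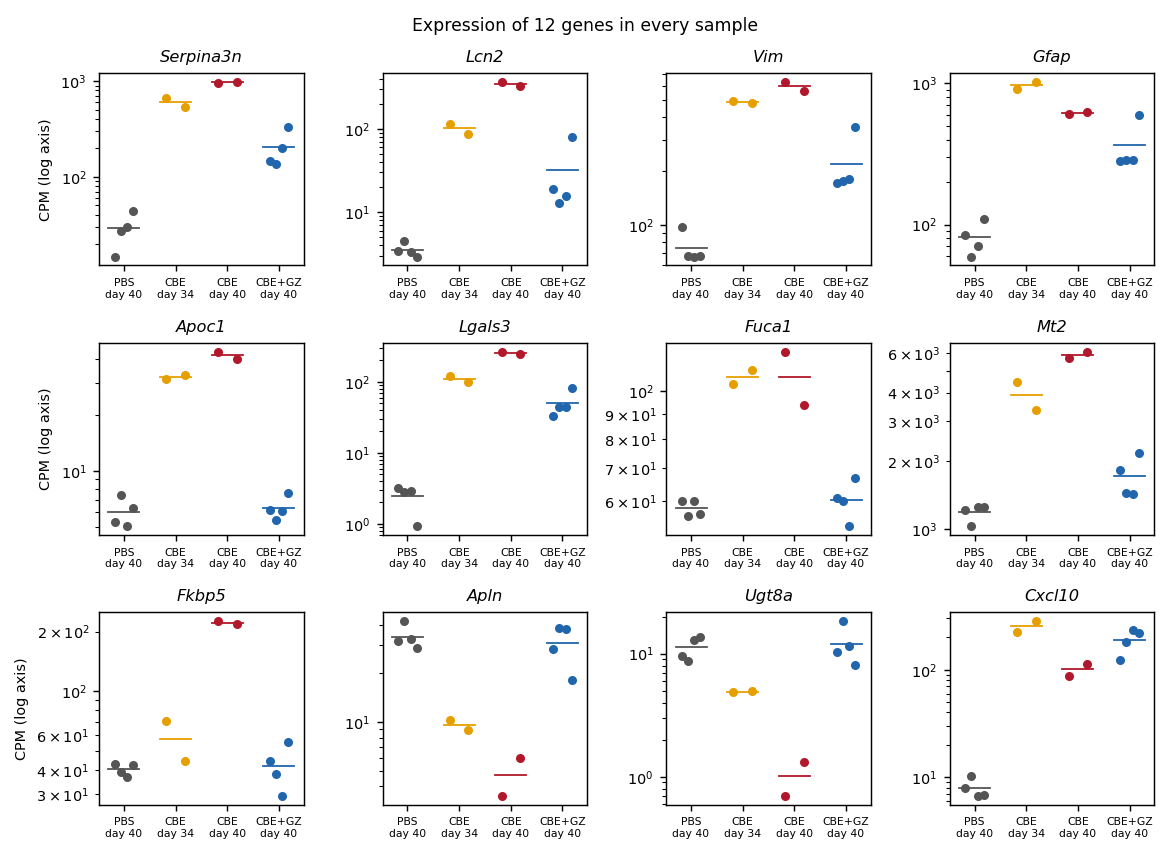
CPM on log axes in every sample for 12 genes, with CBE split by age; each point is a sample and each bar the mean of its group. For Serpina3n, Lcn2, Vim, Apoc1, Lgals3, Fuca1 and Mt2 the samples given GZ-667161 lie below every CBE sample, for Apln and Ugt8a above every CBE sample, and for Cxcl10 above both CBE samples of day 40.

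Microglia that meet lipid or cell debris take on a state called disease-associated, with more lipid-handling and lysosomal transcripts and Apoe. Of 30 tested genes on the disease-associated microglia list, 6 fell (Apoe, Lgals3, Lilrb4a, Spp1, Cd63 and Cd68) and none rose, 26 had a fitted change below 0, and the median was -0.44. Apoe makes up a large part of the summed level, which was 23629 to 25901 CPM in CBE, 14751 to 19851 CPM with GZ-667161 and 11243 to 11929 CPM in PBS. The mean of Apoe was 10208 CPM in CBE and 6518 CPM with GZ-667161. The cells that it came from cannot be told in bulk tissue. The homeostatic microglia list had 1 fall among 17 tested genes, Ltc4s, and a median of -0.07. The list's median was 0.27 against day 40, with 11 of 17 members above 0, and there Siglech and Fcrls rose and Ltc4s and Sparc fell. Against day 34 the list's median was -0.35, with 15 of 17 below 0 and none called. Its summed level overlapped between CBE (1427 to 2097 CPM) and CBE+GZ-667161 (1197 to 1520 CPM). The part of microglial number in these falls was not tested.

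Lgals3, which encodes galectin-3, a lectin of activated phagocytes, was at 119, 98.3, 267 and 247 CPM in CBE, at 32.9, 44.4, 43.7 and 81.5 CPM with GZ-667161 and at 0.923 to 3.17 CPM in PBS. On the log2 scale the change was -1.89 ± 0.32 (adjusted p = 0.013, edgeR). Every sample given GZ-667161 was below every CBE sample and above every PBS sample. The same order held for Spp1, the secreted protein osteopontin, with 241, 259, 349 and 311 CPM in CBE, 60.4, 123, 102 and 192 CPM with GZ-667161 and 10.1 to 16.4 CPM in PBS (log2 fold change -1.30 ± 0.25, adjusted p = 0.023, edgeR). Lilrb4a, an inhibitory receptor of myeloid cells from a family of close copies, fell by 1.60 ± 0.26 (adjusted p = 0.010, edgeR), from 37.4 ± 12.3 to 12.7 ± 3.37 CPM (SD, n = 4 each). How reads shared by close copies were assigned is not stated in the labels used here. The tetraspanin gene Cd63 fell by 0.83 ± 0.16 (adjusted p = 0.026, edgeR), from 355 ± 38.2 to 200.4 ± 56.9 CPM. Without CBE+GZ-667161 replicate 4 or CBE replicate 4 none of Lgals3, Spp1, Lilrb4a and Cd63 passed (adjusted p = 0.051 to 0.089, edgeR). Lgals3, Spp1 and Cd63 did not pass without CBE+GZ-667161 replicate 3, Spp1 and Cd63 without CBE replicate 6, and Cd63 without CBE+GZ-667161 replicate 2 (0.054 to 0.069). Cd68 passed only without CBE+GZ-667161 replicate 5 or PBS replicate 5, and Ltc4s only without CBE replicate 2 or PBS replicate 2, 3 or 5.

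Other well-known members of this state did not pass. Trem2, the lipid-sensing receptor of microglia, was at 211, 222, 179.6 and 142 CPM in CBE and at 84.1, 134, 135 and 196 CPM with GZ-667161 (log2 fold change -0.47 ± 0.19, adjusted p = 0.24, edgeR). The overlap came from CBE+GZ-667161 replicate 5. Gpnmb, a glycoprotein that accumulates in lipid-laden macrophages, was at 8.62, 11.7, 9.80 and 9.93 CPM in CBE and at 2.04, 2.82, 6.28 and 6.68 CPM with GZ-667161, without overlap, and its log2 fold change of -1.20 ± 0.38 had an adjusted p of 0.12 (edgeR). Cst7, a cystatin, had 156 and 211 CPM in the CBE samples of day 34, 68.3 and 75.2 CPM in those of day 40, and 46.6, 96.2, 107 and 128 CPM with GZ-667161. Its log2 fold change was -0.97 ± 0.29 against day 34 and 0.39 ± 0.30 against day 40, neither of which passed (adjusted p = 0.20 and 0.49, edgeR).

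Complement, the opsonising cascade of which microglia make the C1q chains, had 2 falls among 10 tested genes and a median of -0.62. The summed level overlapped, at 2455 to 3646 CPM in CBE and 1316 to 2614 CPM with GZ-667161, against 524 to 615 CPM in PBS. CBE+GZ-667161 replicate 5 was above both CBE samples of day 40. C1qc, a chain of C1q, was at 495, 550.4, 409 and 405 CPM in CBE and at 199.9, 253, 258 and 378 CPM with GZ-667161, against 81.5 to 102 CPM in PBS (log2 fold change -0.78 ± 0.16, adjusted p = 0.032, edgeR). Serping1, the inhibitor of C1, fell by 1.13 ± 0.24 (adjusted p = 0.032, edgeR). C1qb (-0.60 ± 0.16) and C4b (-0.64 ± 0.24) had adjusted p-values of 0.069 and 0.19. Against day 40 the list's median was -0.35 and 1 member fell, Serping1. C1qc did not pass there (-0.59 ± 0.18, adjusted p = 0.069, edgeR). Against day 34 the median was -0.72 and none passed. C4b was at -0.10 ± 0.21 against day 40 and -1.04 ± 0.21 against day 34. Neither C1qc nor Serping1 passed without CBE replicate 3, 4 or 6 or replicate 2, 3 or 4 of CBE+GZ-667161 (adjusted p = 0.051 to 0.12, edgeR), and C1qc did not pass without CBE replicate 2 (0.061).

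**Figure D3:**
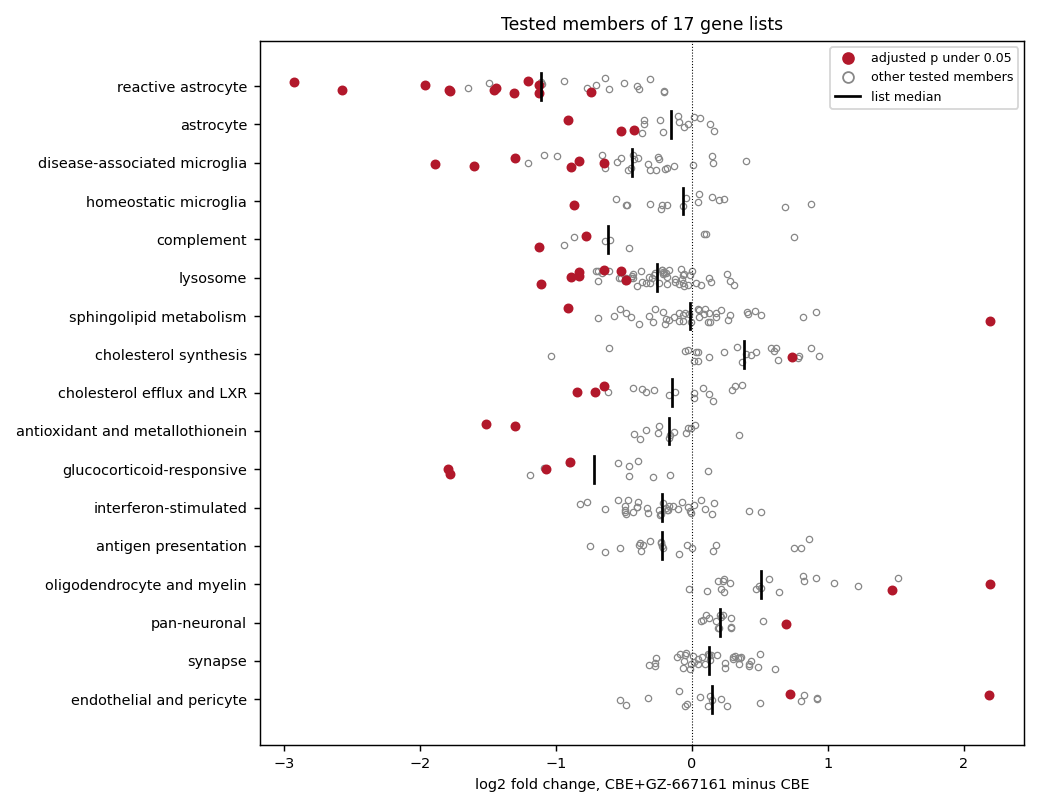
Log2 fold change of CBE+GZ-667161 minus CBE (horizontal axis) for every tested member of 17 gene lists, one list per row; filled points passed the test and vertical bars are list medians. The reactive astrocyte list lies wholly below 0 with a median of -1.11, and the oligodendrocyte and myelin list has 20 of 21 members above 0 with a median of 0.51.

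Lysosomal genes, which code for hydrolases and membrane proteins of the compartment where glucosylceramide is degraded, had 7 falls and no rise among 58 tested members. The median was -0.26 and 50 members had a fitted change below 0. At an unadjusted p under 0.05 edgeR gave 27 of the 58, against 16.5% of all genes. DESeq2 called 12 falls and limma-voom 9, and neither called a rise. The summed level was 11833 to 13273 CPM in CBE, 8116 to 11339 CPM with GZ-667161 and 6763 to 7115 CPM in PBS. Fuca1, the lysosomal fucosidase, was at 103, 111, 120.5 and 93.7 CPM in CBE and at 60.9, 60.0, 53.4 and 66.8 CPM with GZ-667161, which lay beside the 56.0 to 60.1 CPM of PBS. The log2 fold change was -0.83 ± 0.12 (adjusted p = 0.0060, edgeR), and it was the same, -0.83, against each age of CBE. The fold change of Galns, a sulfatase that acts on glycosaminoglycans, was -1.11 ± 0.22 (adjusted p = 0.025, edgeR). Naglu, which acts on heparan sulfate, was at 42.0, 41.7, 38.9 and 38.1 CPM in CBE and at 23.2, 25.6, 26.4 and 27.6 CPM with GZ-667161, against 12.3 to 14.9 CPM in PBS (log2 fold change -0.65 ± 0.14, adjusted p = 0.032, edgeR). The other falls included Man2b1, Cd63 and Cd68. Of those named, all but Fuca1 did not pass without CBE replicate 4 or 6 or replicate 2, 3 or 4 of CBE+GZ-667161 (adjusted p = 0.056 to 0.14, edgeR). Naglu did not pass without CBE replicate 2 (0.056), nor Man2b1 without any 1 PBS sample or CBE replicate 2 or 3 (0.054 to 0.072).

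The gene of the inhibited synthase did not pass. Ugcg was at 19.9, 23.9, 17.2 and 21.5 CPM in CBE, at 26.8, 24.5, 26.8 and 20.9 CPM with GZ-667161 and at 20.4 to 28.0 CPM in PBS (log2 fold change 0.28 ± 0.17, adjusted p = 0.42, edgeR). The groups overlapped. Psap, the precursor of the saposins that assist lysosomal lipid breakdown, and Scarb2, a membrane protein of lysosomes, had log2 fold changes of -0.32 ± 0.12 and -0.06 ± 0.10. Of 42 tested genes of sphingolipid metabolism, 1 rose (Ugt8a) and 1 fell (Sgpl1), and the median was -0.01. Sgpl1, the lyase that ends sphingolipid breakdown, was at 67.9, 67.8, 63.0 and 64.2 CPM in CBE and at 32.3, 38.6, 20.9 and 50.3 CPM with GZ-667161, against 26.5 to 31.4 CPM in PBS (-0.91 ± 0.19, adjusted p = 0.032, edgeR). It did not pass without CBE replicate 2, 4 or 6 or replicate 2, 3 or 4 of CBE+GZ-667161 (0.055 to 0.085).

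Apolipoproteins carry lipids between glia and neurons. Apoc1, a small apolipoprotein, had the smallest p of all genes. It was at 31.3, 32.8, 44.1 and 40.1 CPM in CBE, at 6.13, 5.41, 6.07 and 7.57 CPM with GZ-667161 and at 5.29, 7.45, 5.03 and 6.31 CPM in PBS. The samples given GZ-667161 were at the PBS level, and all were below every CBE sample. The fall was 5.99-fold (log2 fold change -2.58 ± 0.20, adjusted p = 7.7e-06, edgeR), and it passed against day 40 (-2.76 ± 0.21, adjusted p = 4.9e-06) and against day 34 (-2.36 ± 0.22, adjusted p = 0.00019). Apoc1 (mm10, chr7:19689481-19692660, minus strand) lies next to Apoe (chr7:19696109-19699188, minus strand), the main apolipoprotein of brain. Apoe was at 10486, 9519, 10938 and 9890.0 CPM in CBE and at 5523, 6234, 6676 and 7638 CPM with GZ-667161, and remained above the 3919.6 to 4765 CPM of PBS. Its log2 fold change was -0.65 ± 0.11 (adjusted p = 0.011, edgeR), so the neighbours fell by different amounts. Apod, a lipocalin that binds lipids, fell by 0.84 ± 0.19 (adjusted p = 0.040, edgeR), and Srebf1, a regulator of fatty acid synthesis, by 0.72 ± 0.15 (adjusted p = 0.031, edgeR). These 3 were the only falls among 18 tested genes of cholesterol efflux and liver X receptor targets, whose median was -0.15. Apoe did not pass without CBE replicate 4 or replicate 4 of CBE+GZ-667161 (0.051 and 0.055), and Apod and Srebf1 did not pass without CBE replicate 4 or 6 or replicate 2, 3 or 4 of CBE+GZ-667161 (0.056 to 0.13). Apod also did not pass without PBS replicate 2 or 4 (0.055 and 0.061).

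Of 24 tested cholesterol synthesis genes, 1 rose (Hmgcs1) and none fell, 20 had a fitted change above 0, and the median was 0.39. At an unadjusted p under 0.05 edgeR gave 12 of the 24, against 16.5% of all genes. DESeq2 called 5 rises and limma-voom 2, and neither called a fall. Hmgcs1, which makes the HMG-CoA that enters the pathway, was at 158, 172, 128 and 126 CPM in CBE and at 205, 280.5, 280.2 and 204 CPM with GZ-667161, against 249.8 to 334 CPM in PBS. The groups did not overlap, and its log2 fold change was 0.74 ± 0.15 (adjusted p = 0.028, edgeR). Against the CBE samples of day 40, 6 members rose and 1 fell, Lss, and the list's medians against day 40 and day 34 were 0.53 and 0.28. Hmgcs1 did not pass without CBE replicate 4 or 6 or replicate 3 or 4 of CBE+GZ-667161 (adjusted p = 0.090 to 0.11, edgeR).

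Metallothioneins are small cysteine-rich proteins that bind zinc and copper, and their genes respond to metals, to glucocorticoids and to inflammation. Mt2 and Mt1 lie side by side on chromosome 8 and fell together. Their promoters are shown because both genes moved by a similar amount. Each window runs from 250 bases before to 50 bases after the transcription start (RefSeq, GRCm38.p6, plus strand), Mt2 at chr8:94172368-94172667 and Mt1 at chr8:94178839-94179138. Capitals mark matches on either strand to the core of the metal response element, searched as TGCACNC and TGCGCNC, which cannot match at the same position.
Mt2: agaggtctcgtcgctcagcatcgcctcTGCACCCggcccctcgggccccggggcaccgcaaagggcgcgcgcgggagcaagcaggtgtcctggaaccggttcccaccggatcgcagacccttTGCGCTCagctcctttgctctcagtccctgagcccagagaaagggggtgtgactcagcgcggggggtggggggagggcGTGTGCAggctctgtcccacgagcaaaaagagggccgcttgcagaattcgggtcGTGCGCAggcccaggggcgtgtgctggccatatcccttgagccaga
Mt1: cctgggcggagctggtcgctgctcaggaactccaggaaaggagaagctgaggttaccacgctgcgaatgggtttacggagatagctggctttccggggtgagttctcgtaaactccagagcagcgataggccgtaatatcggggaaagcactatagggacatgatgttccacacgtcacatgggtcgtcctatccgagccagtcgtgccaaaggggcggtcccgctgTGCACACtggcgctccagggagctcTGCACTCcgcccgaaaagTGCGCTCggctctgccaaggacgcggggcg
The Mt2 window holds 4 matches and the Mt1 window 3. Of 32851 promoter windows of the same length, 25.7% hold at least 1 match, 1.97% at least 3 and 0.517% at least 4. A match describes the letters and is not evidence of binding.

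Mt2 was at 4464, 3343, 5699 and 6084 CPM in CBE, at 1823, 1436, 1432 and 2155 CPM with GZ-667161 and at 1215, 1026, 1244 and 1248 CPM in PBS. The log2 fold change was -1.52 ± 0.17 (adjusted p = 0.00076, edgeR). It passed against day 40 (-1.78 ± 0.16, adjusted p = 2.3e-05) and against day 34 (-1.19 ± 0.16, adjusted p = 0.012). Mt1 was at 4330.1, 3393, 7739 and 7899 CPM in CBE and at 2394, 2223, 2150.3 and 2730.3 CPM with GZ-667161, against 1762 to 2047 CPM in PBS (-1.30 ± 0.21, adjusted p = 0.010, edgeR). Neither gene overlapped between the groups, and the CBE samples of day 40 were the highest for both. The change in Mt1 was -1.72 ± 0.12 against day 40 and -0.70 ± 0.12 against day 34, and the CBE ages differed from each other (adjusted p = 0.0098, edgeR). Mt3, the brain form of the family, did not pass (-0.34 ± 0.12, adjusted p = 0.17, edgeR). Mt1 and Mt2 are close copies, and their counts are uncertain to the extent that reads were shared. They were the only calls among 15 tested antioxidant and metallothionein genes, whose median was -0.17. Mt1 did not pass without CBE+GZ-667161 replicate 4 (0.062).

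Genes that respond to glucocorticoids fell in 4 of 14 tested members, none rose, and the median was -0.72. Fkbp5, a co-chaperone that restrains the glucocorticoid receptor, was at 70.6 and 44.4 CPM in the CBE samples of day 34 and at 226 and 218 CPM in those of day 40. It was at 44.3, 38.1, 29.5 and 55.2 CPM with GZ-667161 and at 36.9 to 42.9 CPM in PBS. The values with GZ-667161 overlapped those of the CBE samples of day 34 and not those of day 40. Its log2 fold change was -1.78 ± 0.38 against all CBE samples (adjusted p = 0.032, edgeR), -2.43 ± 0.19 against day 40 and -0.48 ± 0.22 against day 34, and the CBE ages differed from each other (adjusted p = 0.0054, edgeR). Sult1a1, a sulfotransferase, was at 30.2, 27.2, 69.3 and 95.0 CPM in CBE and at 21.1, 14.1, 14.0 and 16.0 CPM with GZ-667161 (-1.79 ± 0.32, adjusted p = 0.015, edgeR), and its CBE ages also differed (adjusted p = 0.018, edgeR). Sgk1, a kinase induced by steroids, was at 169, 129, 235 and 254 CPM in CBE and at 93.4, 89.9, 99.8 and 93.5 CPM with GZ-667161, a narrow range within the 84.3 to 112 CPM of PBS (-1.07 ± 0.17, adjusted p = 0.010, edgeR). Tsc22d3, the leucine zipper protein GILZ, fell by 0.89 ± 0.21 (adjusted p = 0.044, edgeR).

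Against the CBE samples of day 40, 8 of the 14 glucocorticoid-responsive genes fell and the median was -1.02. Against day 34 none passed and the median was -0.37. The summed level was 864 and 727 CPM in the CBE samples of day 34, 1437 and 1491 CPM in those of day 40, 554 to 805 CPM with GZ-667161 and 660 to 866 CPM in PBS. The samples that stood apart were the CBE samples of day 40. All samples given GZ-667161 were of day 40, so against the CBE samples of day 34 age and treatment cannot be told apart. Sgk1 did not pass without CBE+GZ-667161 replicate 4 (adjusted p = 0.055, edgeR). Fkbp5, Sult1a1 and Tsc22d3 did not pass without CBE replicate 4 or 6 or replicate 3 or 4 of CBE+GZ-667161 (0.056 to 0.16). Fkbp5 did not pass without CBE+GZ-667161 replicate 2 (0.069), nor Tsc22d3 without CBE+GZ-667161 replicate 5 (0.068) or PBS replicate 2, 3 or 4 (0.050 to 0.065).

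**Figure D4:**
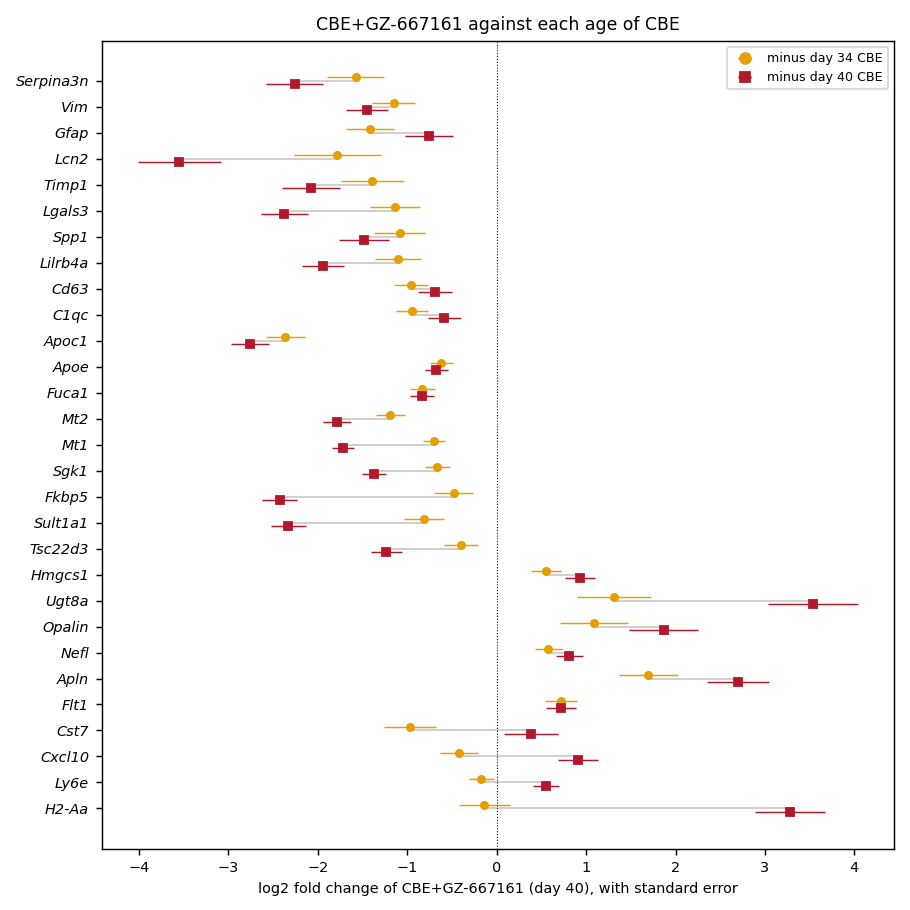
Log2 fold change with its standard error for 29 genes, taken between CBE+GZ-667161 (day 40) and the CBE samples of day 34 (circles) or day 40 (squares); both use the same CBE+GZ-667161 samples. Fuca1, Apoe and Flt1 have nearly equal values, Fkbp5, Sult1a1 and Mt1 are lower against day 40, and Cst7, Cxcl10, Ly6e and H2-Aa lie on opposite sides of 0.

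Genes induced by interferon, a main part of the innate response in this model, did not pass. None of 36 tested interferon-stimulated genes was called by edgeR, DESeq2 or limma-voom, 1 had an unadjusted p under 0.05 in edgeR, against 16.5% of all genes, and the median was -0.22. The summed level was 3478 and 4519 CPM in the CBE samples of day 34, 1931 and 2713 CPM in those of day 40, 2109 to 3215 CPM with GZ-667161 and 806 to 924 CPM in PBS. The samples given GZ-667161 thus lay below both CBE samples of day 34 and overlapped those of day 40. The median was -0.62 against day 34, with 36 of 36 members below 0, and 0.30 against day 40, with 28 of 36 above 0. Against day 40, Oas2 (1.49 ± 0.42, adjusted p = 0.047, edgeR) and Ly6e (0.55 ± 0.14, adjusted p = 0.034, edgeR) rose. Irf7, the transcription factor that amplifies the response, was at 188, 261, 125 and 248 CPM in CBE and at 97.7, 151, 187 and 157 CPM with GZ-667161 (-0.47 ± 0.24, adjusted p = 0.34, edgeR). None of the 36 differed between the ages of CBE at an adjusted p under 0.05.

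None of 16 chemokine and cytokine genes and none of 20 antigen presentation genes passed, with medians of -0.06 and -0.22, and 4 and 5 of them had an unadjusted p under 0.05 in edgeR. DESeq2 called 1 in each list and limma-voom none, and with so few genes a call in edgeR would be rare at the share of 1.28% found over all genes. The chemokine median was -0.47 against day 34 and 0.24 against day 40, and that of antigen presentation was -0.42 and -0.06. Outside the list, 2 chemokine genes passed and were chosen after their values were seen. Ccl17 was at 7.01, 2.78, 36.4 and 34.8 CPM in CBE and at 3.64, 2.17, 3.35 and 2.23 CPM with GZ-667161, with overlap (log2 fold change -2.84 ± 0.61, adjusted p = 0.032, edgeR). It fell against day 40 (-3.60 ± 0.40) and did not pass against day 34 (-0.75 ± 0.54), and it did not pass without CBE replicate 4 or 6 or replicate 2, 3 or 4 of CBE+GZ-667161 (0.069 to 0.12). Ccl27a was at 206 to 229.6 CPM in CBE and at 279 to 421 CPM with GZ-667161 (0.63 ± 0.14, adjusted p = 0.040, edgeR), and it passed only without PBS replicate 5 or replicate 2 or 5 of CBE+GZ-667161. Cxcl10, a chemokine induced by interferon, was at 222 and 284 CPM in the CBE samples of day 34, at 87.5 and 114 CPM in those of day 40 and at 123, 182, 233 and 217 CPM with GZ-667161, against 6.70 to 10.2 CPM in PBS. Every sample given GZ-667161 was above the CBE samples of day 40 (0.91 ± 0.23, adjusted p = 0.030, edgeR), and the CBE ages differed from each other (adjusted p = 0.032, edgeR). Its log2 fold change was -0.42 ± 0.21 against day 34 and 0.11 ± 0.29 against all CBE samples, neither of which passed. H2-Aa, a class II chain, was at 15.6 and 17.8 CPM at day 34, at 1.75 and 1.32 CPM at day 40 and at 13.2, 14.5, 15.3 and 18.3 CPM with GZ-667161. It rose against day 40 (3.28 ± 0.39, adjusted p = 0.00033, edgeR) and not against day 34 (-0.14 ± 0.28), and the CBE ages differed (adjusted p = 0.0054, edgeR). Ccl3, a macrophage chemokine, fell short of the threshold (-0.80 ± 0.26, adjusted p = 0.14, edgeR), with 39.3, 47.8, 68.6 and 54.3 CPM in CBE and 13.6, 39.4, 33.7 and 35.2 CPM with GZ-667161.

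**Figure D5:**
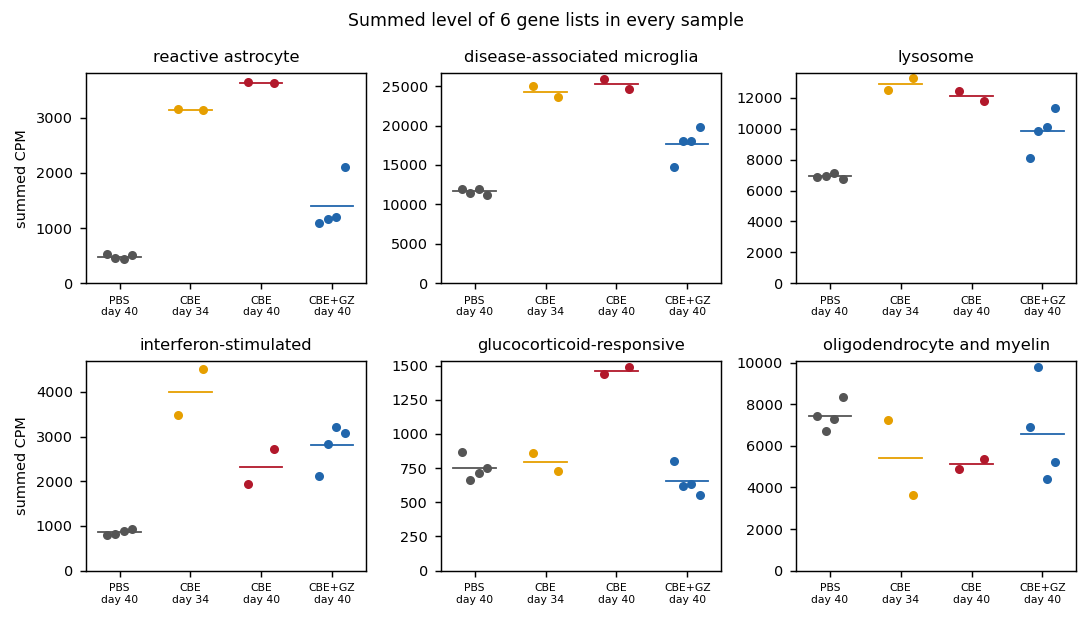
Summed CPM of 6 gene lists in every sample (linear axes from 0), with CBE split by age; points are samples and bars are means. The reactive astrocyte and disease-associated microglia sums of CBE+GZ-667161 lie between PBS and both ages of CBE, the glucocorticoid-responsive sum is high in the CBE samples of day 40, and the interferon-stimulated sum is highest at day 34. Apoe makes up a large part of the disease-associated microglia sum.

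Oligodendrocytes wrap axons in myelin, whose lipids include galactosylceramide. Of 21 tested oligodendrocyte and myelin genes, 2 rose (Ugt8a and Opalin), none fell, 20 had a fitted change above 0, and the median was 0.51. At an unadjusted p under 0.05 edgeR gave 9 of the 21, against 16.5% of all genes. DESeq2 called 3 rises and limma-voom 2, and neither called a fall. Ugt8a, which makes galactosylceramide from the same ceramide that Ugcg uses, was at 4.85, 5.0, 0.700 and 1.32 CPM in CBE and at 10.2, 18.4, 11.5 and 8.02 CPM with GZ-667161, against 8.72 to 13.7 CPM in PBS. The groups did not overlap (log2 fold change 2.19 ± 0.45, adjusted p = 0.029, edgeR). At the totals of the CBE libraries, the CBE values of Ugt8a rest on few reads. Opalin, a myelin glycoprotein, was at 14.0, 10.6, 7.35 and 6.95 CPM in CBE and at 18.2, 45.9, 21.1 and 18.3 CPM with GZ-667161 (1.47 ± 0.31, adjusted p = 0.032, edgeR), and the highest value was that of CBE+GZ-667161 replicate 3. Mbp, the myelin basic protein gene, did not pass (0.24 ± 0.23, adjusted p = 0.65, edgeR), with 2297 ± 651 CPM in CBE and 2710.2 ± 1079 CPM with GZ-667161 (SD, n = 4 each). The summed level overlapped, at 3656 to 7232 CPM in CBE and 4416 to 9807 CPM with GZ-667161. The median of the list was 0.70 against day 40, 0.35 against day 34, 0.16 with Xist as a covariate and -0.07 for CBE+GZ-667161 replicate 4 alone. The sign of the median thus differed between that sample and the full group, and the part of sex in it was not tested. Ugt8a and Opalin did not pass without CBE replicate 4 or 6 or replicate 3 or 4 of CBE+GZ-667161 (adjusted p = 0.085 to 0.12, edgeR).

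Of 15 pan-neuronal genes, 1 rose and none fell, all 15 had a fitted change above 0, and the median was 0.21. Nefl, the light chain of neurofilaments, was at 65.7, 73.3, 57.8 and 60.3 CPM in CBE, at 104, 107, 113 and 89.5 CPM with GZ-667161 and at 100.4 to 132 CPM in PBS (log2 fold change 0.69 ± 0.13, adjusted p = 0.017, edgeR). The groups did not overlap. None of 38 synapse genes passed in edgeR, with a median of 0.12 and 5 at an unadjusted p under 0.05, while DESeq2 called 1 and limma-voom none. These shares are near or below those of all genes. Outside that list, the presynaptic genes Rimbp2 (0.71 ± 0.12, adjusted p = 0.011, edgeR) and Rph3a (0.77 ± 0.17, adjusted p = 0.040, edgeR) rose, and both were chosen after their values were seen. Neither passed without CBE replicate 4 or replicate 4 of CBE+GZ-667161 (0.055 to 0.13), nor Rph3a without CBE replicate 2 or 6, PBS replicate 2 or replicate 3 of CBE+GZ-667161 (0.055 to 0.11). Adcyap1, which encodes the neuropeptide PACAP, was at 2.69, 1.67, 2.80 and 4.64 CPM in CBE and at 7.27, 8.88, 13 and 11.1 CPM with GZ-667161, against 8.77 to 16.0 CPM in PBS (1.69 ± 0.34, adjusted p = 0.026, edgeR). It was the only call among 21 tested neuropeptide and secretory genes, and its CBE values rest on few reads. Among the other largest rises, Thrb, a thyroid hormone receptor, was at 28.0, 29.4, 22.4 and 15.6 CPM in CBE and at 50.9, 44.2, 51.7 and 40.1 CPM with GZ-667161 (1.0 ± 0.19, adjusted p = 0.023, edgeR). Grm7, a metabotropic glutamate receptor, rose by 1.07 ± 0.24 (adjusted p = 0.040, edgeR), and Ano4 and Stac2 rose by 1.27 and 0.94. None of these 6 genes passed without CBE replicate 4 or replicate 3 or 4 of CBE+GZ-667161 (0.056 to 0.13), and of the 6 only Adcyap1 passed without CBE replicate 6 (0.066 to 0.090 for the others). Grm7 and Ano4 did not pass without CBE replicate 2 or replicate 2 of CBE+GZ-667161 (0.050 to 0.076), nor Grm7 without PBS replicate 2, 3 or 4 (0.052 to 0.059).

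Vascular genes gave the rise with the smallest p. Apln, which encodes apelin, a peptide secreted by sprouting endothelial cells and by other cells, was at 10.2, 8.89, 3.5 and 5.96 CPM in CBE, at 28.4, 37.9, 37.9 and 18.3 CPM with GZ-667161 and at 28.8 to 42.1 CPM in PBS. The groups did not overlap, and the rise was 4.55-fold (log2 fold change 2.19 ± 0.29, adjusted p = 0.0049, edgeR). It was 2.70 ± 0.35 against day 40 and 1.70 ± 0.33 against day 34, where it did not pass (adjusted p = 0.083, edgeR). Apln is X-linked. Its log2 fold change was 2.45 with Xist as a covariate (adjusted p = 0.0060, edgeR). For CBE+GZ-667161 replicate 4 alone, the sample with the male pattern, it was 2.47. The part of sex in the rise of Apln was not tested. Flt1, a receptor for vascular endothelial growth factor, was at 42.6, 53.3, 56.7 and 39.4 CPM in CBE and at 74.3, 85.3, 82.0 and 73.9 CPM with GZ-667161 (0.72 ± 0.14, adjusted p = 0.023, edgeR). Mmrn2, an endothelial matrix protein, was at 3.77, 6.67, 3.5 and 1.32 CPM in CBE and at 12, 14.1, 15.1 and 9.35 CPM with GZ-667161 (1.82 ± 0.36, adjusted p = 0.025, edgeR). Its CBE values rest on few reads. Of 19 endothelial and pericyte markers, Apln and Flt1 rose, none fell and the median was 0.15. The summed level of these markers was 848 to 914 CPM in CBE and 833 to 1059 CPM with GZ-667161. Flt1 and Mmrn2 did not pass without CBE replicate 6 or replicate 3 or 4 of CBE+GZ-667161 (0.071 to 0.089), nor Mmrn2 without CBE replicate 4 (0.076).

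Other called genes fell outside these groups. Krt1, a keratin, was at 7.01, 9.44, 5.95 and 6.29 CPM in CBE and at 4.47 to 6.61 CPM in PBS, and at 1.82, 1.08, 1.46 and 2.23 CPM with GZ-667161. It was thus lower with GZ-667161 than in either other group (-2.13 ± 0.34 against CBE, adjusted p = 0.010, edgeR), and it did not pass without CBE+GZ-667161 replicate 4 (0.062). Slc2a4, the insulin-responsive glucose transporter, was at 7.54, 5.55, 16.5 and 10.9 CPM in CBE and at 1.82, 1.30, 0.419 and 4.45 CPM with GZ-667161 (-2.54 ± 0.51, adjusted p = 0.027, edgeR). Slc2a4 did not pass without CBE replicate 4 or 6 or replicate 2, 3 or 4 of CBE+GZ-667161 (0.066 to 0.10). The values of Krt1 and Slc2a4 with GZ-667161 rest on few reads.

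In edgeR no member of the lists for interferon-inducible GTPases (9 tested), immediate early genes (19), cell death (12) or the cell cycle (13) passed, and 0, 3, 1 and 0 had an unadjusted p under 0.05. DESeq2 and limma-voom called none of them. Lists of this size would rarely hold a call at the share of all genes. The median of the interferon-inducible GTPases was 0.55 against day 40 (9 of 9 above 0) and -0.62 against day 34 (9 of 9 below 0). That of the immediate early genes was 0.62 against day 40 (18 of 19 above 0) and -0.004 against day 34 (9 of 19). Arc rose against day 40 (2.18 ± 0.50, adjusted p = 0.021, edgeR). Of the cell death genes, 11 of 12 had a fitted change below 0, with a median of -0.28. No member of the lists for myeloid receptors (17 tested), oligodendrocyte precursors (12), the unfolded protein response (16) or the respiratory chain (76) passed in edgeR, and 7, 4, 6 and 13 had an unadjusted p under 0.05, where the share of all genes is 16.5%. DESeq2 called 2, 1, 1 and 2 of these and limma-voom 2, 0, 0 and 0. Ndufaf2, an assembly factor of respiratory complex I outside that list, was at 49.0, 52.2, 43.8 and 39.7 CPM in CBE and at 85.0, 82.1, 86.6 and 86.9 CPM with GZ-667161 (0.89 ± 0.13, adjusted p = 0.0065, edgeR), and was chosen after its values were seen. Of 78 ribosomal protein genes only Rps25 passed in edgeR, which is near the share of 1.28% of all genes. At an unadjusted p under 0.05 edgeR gave 16 of them. DESeq2 called 5 falls and limma-voom 1. The median was -0.11, with 59 members below 0. Rps25 had a log2 fold change of -0.83 ± 0.19 (adjusted p = 0.042, edgeR). With 1 library left out, it passed only without CBE replicate 3, PBS replicate 5 or CBE+GZ-667161 replicate 3. Against day 40 Rps25 did not pass (adjusted p = 0.052, edgeR). Markers of other cells that a brain homogenate can hold did not pass in edgeR. The summed level of border macrophage and monocyte markers was 35.4 to 69 CPM in CBE and 28.9 to 51.7 CPM with GZ-667161, that of lymphocyte markers 70.7 to 99.2 and 94.7 to 208 CPM, that of choroid plexus and ependyma markers 127 to 594 and 64.7 to 415 CPM, and that of erythroid markers 1249 to 1734 and 1414 to 3910.4 CPM. The tested members numbered 6, 4, 8 and 5, of which 1, 2, 1 and 2 had an unadjusted p under 0.05 in edgeR. DESeq2 called 1 choroid plexus and ependyma marker and limma-voom 1 lymphocyte marker. Against the CBE samples of day 40, Ly6c2 (4.26 ± 1.11, adjusted p = 0.036), Ighm (2.14 ± 0.29, adjusted p = 0.00090) and Hbb-bt (1.83 ± 0.32, adjusted p = 0.0052) rose in edgeR's test, and with Xist as a covariate 1 lymphocyte and 1 erythroid marker rose. Their part in the results was not tested. Pan-neuronal markers summed to at least 7546 CPM in every sample, and astrocyte and oligodendrocyte markers were also present, as the labelled tissue holds.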

How the data were processed

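Libraries were made from whole-brain RNA by a bulk form of MARS-seq, which reads 3' ends, according to the extract protocol. The values used are the deposited raw counts per gene symbol. The submitters' processing notes name cutadapt, HISAT 0.1.6, HTSeq, DESeq2 and mm10; the annotation, filters, strand setting and handling of molecular identifiers are not given in the sources used here. Log2 fold changes and p-values of the authors' deposited table were used only to count its calls and to compare their direction.

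Left out were 23 entries with a date in place of a symbol (0.266% to 0.347% of a library's counts), and 16482 genes remained. filterByExpr (minimum count 10, minimum total 15) kept 12623. Counts were scaled by TMM and tested with edgeR 4.0.16 (glmQLFit, glmQLFTest) in 1 fit of PBS, CBE and CBE+GZ-667161 under R 4.3.3, with Benjamini-Hochberg adjustment at 0.05. Each age of CBE was compared in a fit with 4 groups. Levels are CPM of the TMM-scaled library. Alternatives used other scaling, filters and tests, DESeq2 1.42.0 and limma 3.58.1 among them, Xist, fewer samples and left-out libraries. The steps were run on simulated counts in which all genes had the same spread and no age or sex difference was built in. That run checked fold changes and their direction, and it cannot vouch for the calls made here. Low genes are measured less precisely in the libraries with lower totals.

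The comparison, the 32 gene lists and the rule for named genes were chosen with earlier results of these data known. The rule took the 10 largest falls and 10 largest rises among called genes without overlap between the groups (no Y-linked gene, Xist or unnamed model), up to 4 called members of each list by smallest p, or the 2 with the highest mean count where none passed, and a fixed set, 93 genes in all. Other genes were named for lying in a list and were chosen after their values were seen. Using replicate 4 of CBE+GZ-667161 alone was chosen after seeing the data. Genome positions are from GENCODE M21 for GRCm38 (mm10), matched by symbol. A few genes are not reported here.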

Additional observations from a re-analysis of the deposited data

Results flagged for a closer look

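In 279 sets of 4 samples (93 named genes in 3 groups), 21 had a sample farther from the other 3 than the 95% critical value of Dixon's test allows; about 1 set in 20 is expected to do so by chance.

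In CBE+GZ-667161, replicate 5 was high for genes of the reactive astrocyte list: Gfap was 600.5 CPM (others 281 to 289), Lcn2 81.1 CPM (13 to 18.9) and Vim 352 CPM (172 to 180.4). Within this group, replicate 5 also had the highest sums of the disease-associated microglia, complement and lysosome lists, though not of every list. Replicate 3 was high for oligodendrocyte genes, with Olig1 at 379 CPM (235 to 253) and Opalin at 45.9 CPM (18.2 to 21.1). Replicate 4 was low for Cspg5 at 321 CPM (392 to 406), and replicate 2 was high for Tsc22d3 at 63.6 CPM (44.0 to 46.0). Ttr, the choroid plexus transcript, stood apart in 1 sample of every group, at 329 CPM in CBE+GZ-667161 replicate 2 (15.2 to 62.6), 517 CPM in CBE replicate 4 (56.0 to 124) and 103 CPM in PBS replicate 5 (11.3 to 20.6).

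In CBE, Timp1 was 85.8 CPM in replicate 6 (36.8 to 38.8), Stac2 was 48.5 CPM in replicate 2 (30.5 to 33.3) and Slc17a7 was 932 CPM in replicate 4 (1116 to 1128).

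In PBS, Vim was 97.1 CPM (66.6 to 67.2) and Hmgcs1 249.8 CPM (321 to 334) in replicate 2. In PBS replicate 3, Hbb-bs was 2839 CPM (1396 to 1605), Krt1 4.47 CPM (6.28 to 6.61) and Mt2 1026 CPM (1215 to 1248). In PBS replicate 4, Galns was 16.8 CPM (11.1 to 11.9) and Mmrn2 5.45 CPM (9.26 to 9.57), and in PBS replicate 5 Trem2 was 34.0 CPM (31.7 to 32.1).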

How the results depend on the processing

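The calls (56 higher, 105 lower) became, as totals with higher and lower in parentheses, 489 (193, 296) with DESeq2, 777 (373, 404) against day 40 CBE, 2 (0, 2) against day 34 CBE, 67 (37, 30) with Xist as a covariate, 31 (9, 22) in a fit of the 8 samples alone, 21 (4, 17) with glmTreat against a fold change of 1.2, 6 (3, 3) at an adjusted p under 0.01 and 10 (6, 4) with CBE+GZ-667161 replicate 4 alone, an alternative chosen after seeing the data. Leaving out 1 library gave 5 to 269 calls, 2 to 111 higher and 3 to 164 lower; without PBS replicate 2 or 4 the higher calls were 33 and 34. The causes of these changes were not tested, and some of these fits also used fewer samples. DESeq2's size factors, upper quartile scaling, no filter, a minimum count of 30 and limma-voom gave 174, 158, 149, 197 and 210 calls, and none of these moved the median of all genes beyond 0.02. All 47 named calls kept their direction in every alternative that tested them (4 were not tested at a minimum count of 30), which follows in part from choosing genes whose groups do not overlap and shows no stability.

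Same-numbered CBE and CBE+GZ-667161 samples correlated at 0.04, -0.05 and 0.04 in their deviations from the group means, so the numbers were not taken to pair the samples; with the replicate block in a fit of the 8 samples, 16 genes passed (2 higher, 14 lower). Total counts of 1758446 to 4917330 in the 8 samples limit what low genes can show.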
